A study of Mus musculus with 9 samples.

Results

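Stomach glands that carried an activated Notch1 fragment and had lost 1 copy of Arid1a were compared with wild type glands across 11209 of the 18423 genes measured. The comparison used 6 of the 9 RNA-seq libraries of the study. In 3 libraries, named Arid1a_Het, the mice were Atp4bCre; Rosa26NICD; Arid1aflox/+, so that Cre removed a floxed Arid1a copy and switched on the Notch intracellular domain (NICD) from the Rosa26 locus. Another 3 libraries, named WT, came from wild type mice, and the last 3, named Ctrl, from Atp4bCre; Rosa26NICD mice with both Arid1a copies. Arid1a_Het and WT therefore differ in Cre, in NICD and in Arid1a at once, and the parts of these in any difference between them cannot be told apart. By their labels, Arid1a_Het and Ctrl differ in the floxed Arid1a allele alone. The Atp4b promoter drives Cre in acid-secreting parietal cells. The glands were detached with EDTA from corpus areas that held tumors, or from the matching area of tumor-free stomachs, and polyadenylated RNA was sequenced. A gene was tested where it reached 1 FPKM (fragments per kilobase of transcript, with totals scaled between libraries) in at least 3 of the 9 libraries. The labels give neither age nor sex, and they do not say whether each library came from its own mouse, and every p-value therefore reflects only how far these libraries vary.

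Notch receptors at the cell surface are cut when a ligand of the Delta or Jagged family on a neighbouring cell binds them. The freed intracellular domain enters the nucleus, joins the DNA-binding protein RBPJ and switches on genes such as Hes1, Hey1 and Nrarp. In the stomach, Notch keeps gland progenitors undifferentiated. Arid1a encodes a DNA-binding subunit of the BAF (SWI/SNF) chromatin remodeler, which moves nucleosomes at enhancers and promoters and is often mutated in gastric cancer. A corpus gland holds mucous pit cells, neck cells, acid-secreting parietal cells, pepsinogen-secreting chief cells, hormone-secreting endocrine cells and chemosensory tuft cells.

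The libraries held an estimated 22653249 to 29478481 whole reads, worked out from the FPKM values. The 50 most abundant genes took between 18.4% and 35.5% of the reads, the most in WT 2 (35.5%) and Arid1a_Het 2 (32.5%). In these 2 libraries the chief cell product Pgc, a pepsinogen precursor, stood at 76555 and 80305 FPKM, against 7049 to 34196 FPKM in the other 4 Arid1a_Het and WT libraries. Arid1a_Het 3 held RNA of exocrine pancreas: its level of Ctrb1, a pancreatic digestive protease, was 375 FPKM, against 0.197 and 0.279 FPKM in the other Arid1a_Het libraries and 0.0971 to 1.70 FPKM in WT. Ctrl 1 held such RNA too: the mean log2(FPKM + 1) of 28 exocrine pancreas genes was 5.90 in Ctrl 1 and 4.83 in Arid1a_Het 3, against at most 2.42 in the other 7 libraries. The summed level of these 28 genes gave another order. It was 6336 FPKM in Ctrl 1 and 2866 FPKM in Arid1a_Het 3, against 1031 (Ctrl 3) to 20733 FPKM (WT 2) in the others. The source of this RNA was not tested. On the first principal component of all tested genes, which held 54.9% of the variance, the Arid1a_Het libraries scored 16.4, -21.8 and 31.2. The WT libraries scored -28.0, -68.5 and -37.2 and the Ctrl libraries 29.0 to 44.1, so Arid1a_Het 2 lay nearest to WT.

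Arid1a itself was lower in the Arid1a_Het libraries. In Arid1a_Het it measured 8.94, 5.90 and 6.96 FPKM. WT libraries held 13.5, 7.79 and 12.0 FPKM, and Ctrl libraries 14.9, 13.3 and 16.2 FPKM. The highest Arid1a_Het library lay above the lowest WT library, so these groups overlapped, while all Arid1a_Het libraries lay below all Ctrl libraries. The mean of log2(FPKM + 1) differed by -0.53 between Arid1a_Het and WT, and a two-sided exact permutation test gave p = 0.2, where 3 against 3 libraries allow no p below 0.1. The reads cover the whole gene, floxed exons and the untouched copy together, so the value checks the genotype only in part.

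Of the 11209 genes, 231 were called higher in Arid1a_Het than in WT (2.06%) and 77 lower (0.687%), where called means an adjusted p under 0.05 in limma. Fold changes are differences in mean log2(FPKM + 1), which understate the change of low genes. The called higher genes had a median difference of 2.01 and the called lower genes of -1.25, beside 0.02 over all tested genes. All 308 called genes had Arid1a_Het and WT libraries that did not overlap. Over all genes, the 3 Arid1a_Het libraries lay above the 3 WT libraries in 10.6% and below them in 8.57%. The list counts below are to be read beside these shares and the 2.06% and 0.687% called. The called higher genes had a median WT level of 1.94 FPKM, beside 7.09 FPKM over all tested genes. Of the 231, 90 averaged under 1 FPKM in WT. A gene under 1 FPKM in all WT libraries was tested only where Arid1a_Het or Ctrl libraries reached 1 FPKM. Such low WT levels therefore follow in part from the filter. Among the 231 higher genes, 39 reached a mean of at least 100 FPKM in Arid1a_Het. Among the 231 higher genes Arid1a_Het 3 was the highest of the 3 in 184 and Arid1a_Het 2 the lowest in 177. The calls depended on the libraries: 47 of the 231 and 6 of the 77 kept their call under every one of 27 alternative analyses, and 92 and 48 lost it under at least 10 of them. Without WT 3 there were 80 higher and 15 lower calls, and without Arid1a_Het 2 there were 528 and 192. Leaving out Arid1a_Het 3 gave 135 and 28, among them 130 of the 231 and 23 of the 77, leaving out Arid1a_Het 1 gave 80 and 11, and without WT 1 or WT 2 there were 142 and 64, or 106 and 24. The Ctrl libraries share the estimate of spread, and without Ctrl 1, Ctrl 2 or Ctrl 3 there were 152 and 34, 145 and 37, or 166 and 52. In bulk glands, a smaller number of cells of a type and less RNA in each such cell cannot be told apart.

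**Figure D1:**
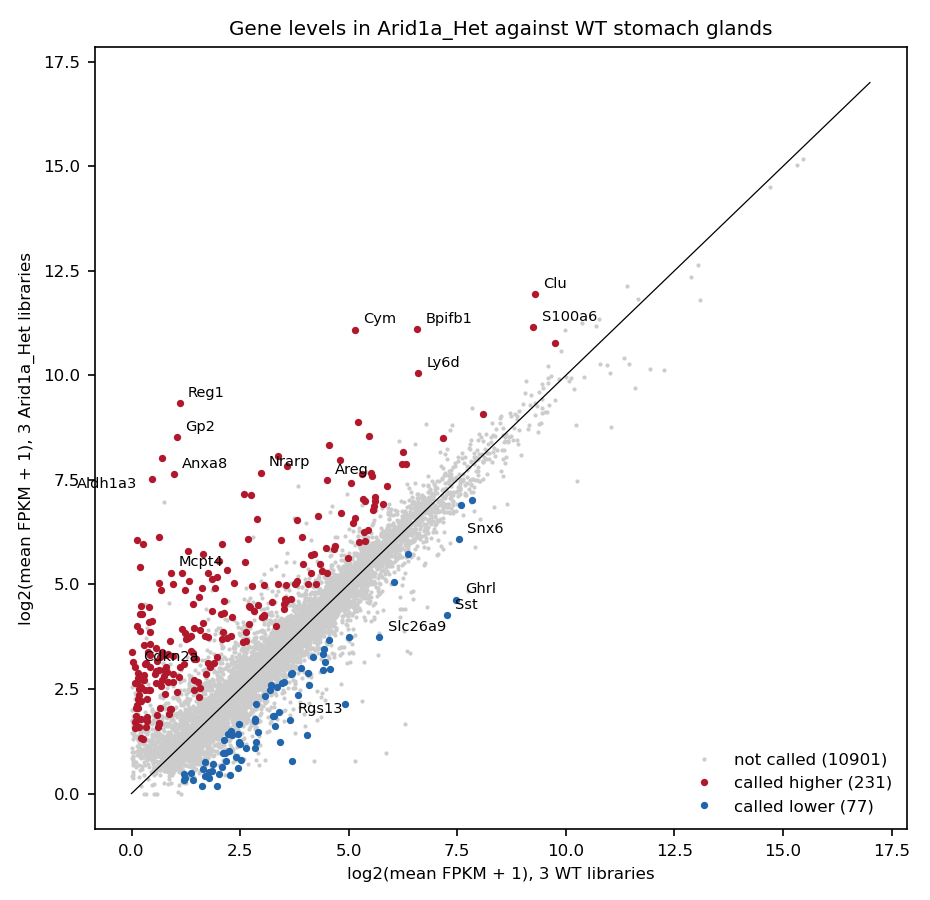
Mean level of each of the 11209 tested genes in the 3 WT libraries (x axis) and the 3 Arid1a_Het libraries (y axis), both as log2 of mean FPKM + 1. The 231 genes called higher (red) lie mostly at the left, at low WT levels, and the 77 called lower (blue) lie closer to the diagonal than the largest higher ones.

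The largest increases were of a secreted lectin, a membrane glycoprotein and a retinal dehydrogenase. By fold, the leading named genes were Reg1 (8.202), Gp2 (7.50), Aldh1a3 (6.69), Ltf (6.48), Anxa8 (6.37), Cym (5.93), Prss22 (5.43), Gabrp (5.41), Reg3g (5.26), Reg3b (4.89) and Nrarp (4.74), all as log2 differences. Ecm1, Bpifb1, Mcpt1, Mcpt4, Tgm2, Krt79, Prap1, Vnn1 and Otop3 followed. Cym encodes chymosin, a milk-clotting protease of the suckling stomach. It measured 307, 3624 and 2614 FPKM in Arid1a_Het and 15.7, 78.9 and 8.74 FPKM in WT, with Arid1a_Het 1 well below the other 2 and still above all WT libraries. Its difference was 5.93 ± 1.12 (SE; adjusted p = 0.0274 in limma), and the call was lost without Arid1a_Het 3, WT 1 or WT 3. Bpifb1, a secreted airway and mucosal protein, measured 1012, 4245 and 1316 FPKM against 43.5, 166 and 74.8 FPKM in WT. Bpifb1 was highest in Arid1a_Het 2, the reverse of most called genes. The largest decreases were of Sst (-3.25), Ghrl (-2.93), Cst8 (-2.90), Rdh7 (-2.67), Rasgrp3, Syt7, Slc26a9, Sdr9c7, Rgs13 and Cdkl1, in that order. Without Arid1a_Het 3, Krt79, Rdh7, Rasgrp3, Slc26a9 and Sdr9c7 lost their call, like Cym. 6 genes fell by 2 or more on the log2 scale, against 116 that rose by as much.

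Genes of the Notch pathway that NICD is known to switch on were higher. Of 12 tested Notch targets 4 rose and none fell, with a median difference of 0.69, beside 0.02 over all genes. Of 23 tested ligands, receptors and pathway enzymes 3 rose and none fell, with a median of 0.17. Nrarp, a short ankyrin protein that NICD induces and that in turn limits Notch signalling, measured 263, 161 and 185 FPKM in Arid1a_Het and 9.06, 3.80 and 7.69 FPKM in WT. The lowest Arid1a_Het library lay far above the highest WT library, and the difference was 4.74 ± 0.32 (SE; adjusted p = 0.000339 in limma). Nrarp lies on chromosome 2 from 25180758 to 25183339 (GRCm38, plus strand) and kept its call under all 27 alternatives. Hes1, a repressor of differentiation, measured 117, 128 and 115 FPKM against 45.1, 53.02 and 64.9 FPKM, so the groups were apart and the 3 Arid1a_Het libraries close together. Its difference was 1.14 ± 0.20 (adjusted p = 0.0192 in limma). Hey1, a related repressor, stood at 4.99, 1.24 and 5.17 FPKM against 0.198, 0.454 and 0.185 FPKM, with Arid1a_Het 2 the lowest (1.78 ± 0.37, adjusted p = 0.0398 in limma). Ccnd1, which encodes cyclin D1 of the G1 phase, rose by 1.82 ± 0.36 (adjusted p = 0.0315 in limma).

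Among receptors, Notch3 showed the largest change. Its level was 7.37, 3.65 and 8.66 FPKM in Arid1a_Het and 0.653, 0.444 and 0.316 FPKM in WT, with no overlap (2.30 ± 0.26, adjusted p = 0.00307 in limma). Notch1 rose by 1.25 ± 0.20, from 2.52 ± 0.943 FPKM in WT to 7.20 ± 0.852 FPKM (SD, n = 3 libraries each, adjusted p = 0.0140 in limma). Reads of native Notch1 and of a NICD transcript that matches it cannot be told apart in this value. The ligand Jag1 rose by 1.33 ± 0.25, from 5.49 ± 0.808 to 15.7 ± 4.84 FPKM (SD, n = 3; adjusted p = 0.0278 in limma). Dll1, a Delta ligand, measured 1.85, 0.729 and 4.57 FPKM against 0.143 to 0.216 FPKM, with all Arid1a_Het libraries above WT and an adjusted p of 0.105 in limma. Notch3 kept its call under every alternative. Without Arid1a_Het 1, Notch1, Jag1, Hes1, Hey1 and Ccnd1 all lost theirs, and over all alternatives the highest limma adjusted p-values were 0.0848, 0.147, 0.0724, 0.201 and 0.139 for these 5 genes. Jag1, Hes1, Hey1 and Ccnd1 lost their call without Arid1a_Het 3 as well. Of the 12 targets 1 was called without Arid1a_Het 1, Arid1a_Het 3, WT 1 or WT 2, and 2 without WT 3. Of the 23 pathway genes 1 was called without Arid1a_Het 1 or WT 3, 2 without Arid1a_Het 3 and 6 without Arid1a_Het 2.

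**Figure D2:**
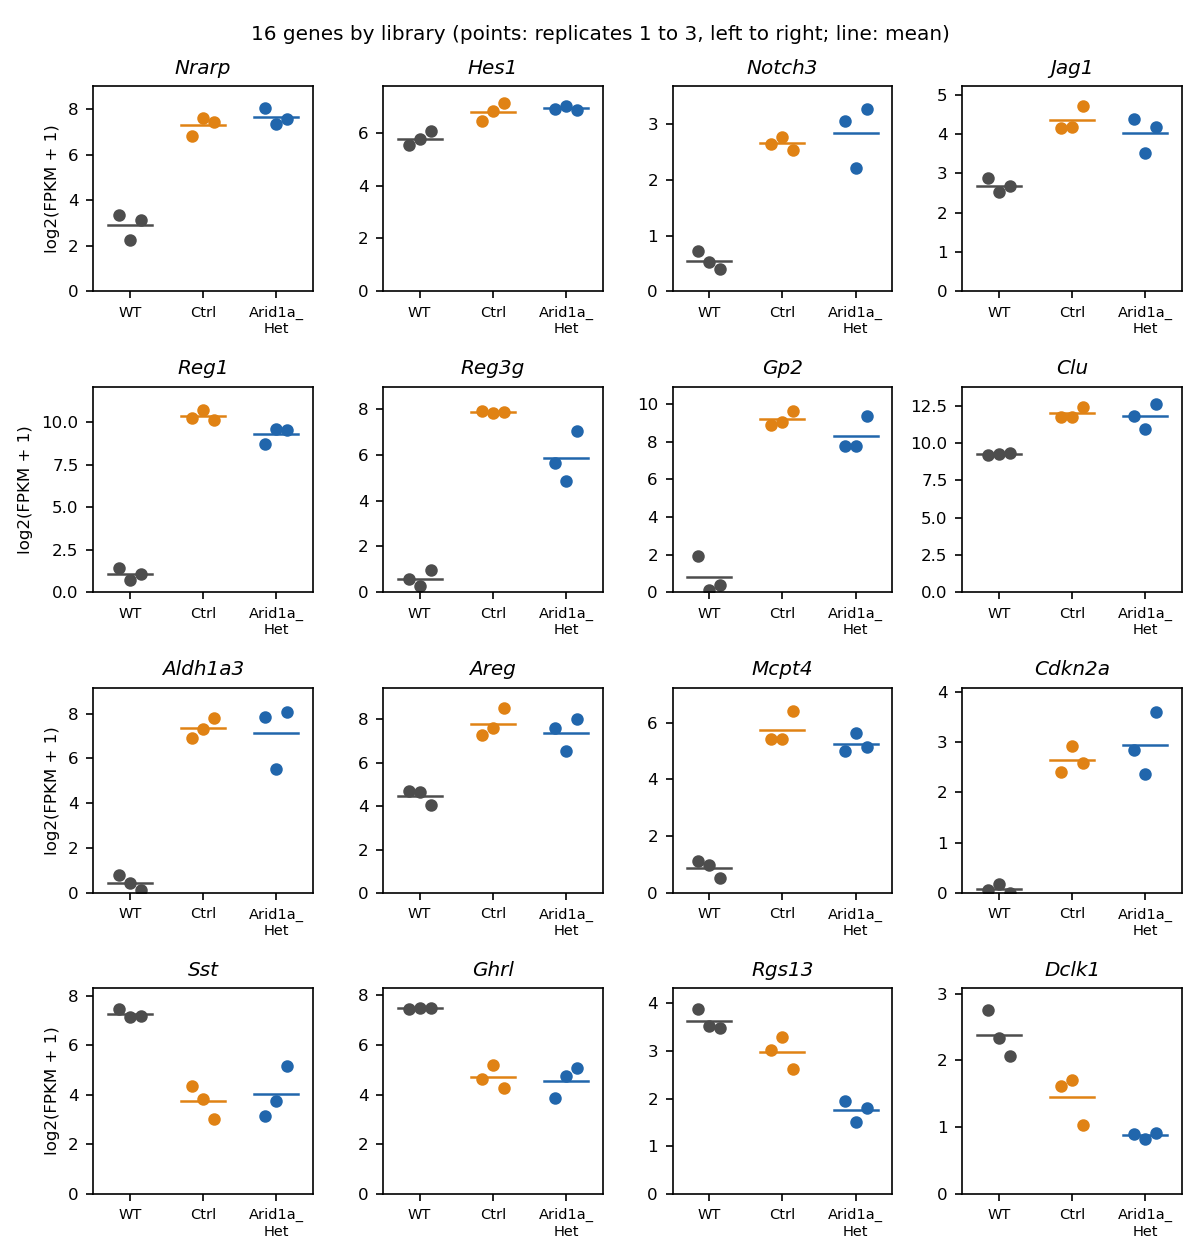
Level of 16 genes as log2(FPKM + 1) in each library of WT, Ctrl and Arid1a_Het (points, replicates 1 to 3 from left to right; the line is the group mean). Nrarp, Hes1, Notch3, Jag1, Reg1, Reg3g, Gp2, Clu, Aldh1a3, Areg, Mcpt4 and Cdkn2a are higher in every Arid1a_Het library than in every WT library, and Sst, Ghrl, Rgs13 and Dclk1 lower.

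The promoters of called genes are shown here for genes that lie side by side and rose together, and for Nrarp as the Notch target with the largest change. RefSeq's promoter table for GRCm38.p6 matched 8726 of the 11209 tested genes, 171 of the 231 higher and 62 of the 77 lower. The 250 bases before the start are given 5′ to 3′ on the gene's strand. Capitals mark TGGGAA, the core that RBPJ binds, and TATAAA, the TATA box, on either strand, so that TTCCCA and TTTATA are the same motifs read on the other strand. Reg1 (chr6:78425733-78425982, plus), Reg3g (chr6:78468875-78469124, minus) and Reg3b (chr6:78370635-78370884, plus) are 3 genes of 1 cluster, Mcpt1 (chr14:56017714-56017963, plus) and Mcpt4 (chr14:56062311-56062560, minus) belong to another, and Nrarp is at chr2:25180508-25180757 (plus).
Nrarp: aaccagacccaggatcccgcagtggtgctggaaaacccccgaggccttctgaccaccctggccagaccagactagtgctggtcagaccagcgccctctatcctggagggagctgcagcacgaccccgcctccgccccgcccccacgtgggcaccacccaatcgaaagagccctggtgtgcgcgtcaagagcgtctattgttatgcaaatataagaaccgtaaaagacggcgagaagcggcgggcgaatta
Reg1: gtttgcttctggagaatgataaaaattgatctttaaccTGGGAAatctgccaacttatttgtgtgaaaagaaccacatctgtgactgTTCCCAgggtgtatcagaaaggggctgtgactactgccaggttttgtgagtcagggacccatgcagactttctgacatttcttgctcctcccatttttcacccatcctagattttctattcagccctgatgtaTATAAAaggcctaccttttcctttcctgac
Reg3g: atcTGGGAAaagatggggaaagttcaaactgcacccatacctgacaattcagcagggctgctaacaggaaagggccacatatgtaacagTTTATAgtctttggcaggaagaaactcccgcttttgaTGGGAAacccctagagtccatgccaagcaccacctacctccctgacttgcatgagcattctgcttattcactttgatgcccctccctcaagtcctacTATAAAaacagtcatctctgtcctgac
Reg3b: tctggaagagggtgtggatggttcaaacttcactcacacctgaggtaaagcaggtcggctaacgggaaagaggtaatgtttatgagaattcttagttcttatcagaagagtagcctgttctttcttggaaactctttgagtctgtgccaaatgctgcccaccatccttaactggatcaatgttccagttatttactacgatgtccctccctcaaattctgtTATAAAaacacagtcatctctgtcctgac
Mcpt1: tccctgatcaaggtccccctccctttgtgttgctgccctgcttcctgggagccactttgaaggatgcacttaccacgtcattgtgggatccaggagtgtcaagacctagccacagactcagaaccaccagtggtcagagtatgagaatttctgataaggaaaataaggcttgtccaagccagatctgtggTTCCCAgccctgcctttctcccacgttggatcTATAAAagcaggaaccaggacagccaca
Mcpt4: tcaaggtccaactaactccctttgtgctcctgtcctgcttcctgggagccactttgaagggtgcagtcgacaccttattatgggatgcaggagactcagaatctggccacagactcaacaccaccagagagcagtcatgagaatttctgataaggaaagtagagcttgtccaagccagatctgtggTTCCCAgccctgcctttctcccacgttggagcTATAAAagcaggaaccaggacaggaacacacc
All 3 Reg promoters and both Mcpt promoters held a TATA box close before the start, which began at -30 in Reg1, -27 in Reg3g, -29 in Reg3b, -28 in Mcpt1 and -32 in Mcpt4. The RBPJ core was found at -212 and -163 in Reg1, at -247 and -124 in Reg3g, at -60 in Mcpt1 and at -64 in Mcpt4. These windows of Nrarp and Reg3b did not hold those letters. The lines for Mcpt1 and Mcpt4 resemble each other over most of their length, and so do the ends of Reg3g and Reg3b before the start.

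Over all 11088 promoters of tested genes, 219 of which belonged to higher and 90 to lower genes, 19 motifs were counted on both strands. TGGGAA was in 20.7% of all promoters, 35.6% of those of higher genes and 17.8% of those of lower genes. It was in none of the promoters of Notch1, Notch3, Jag1 and Nrarp, 1 for each gene. Hes1, Hey1 and Ccnd1 had no entry in RefSeq's promoter table, so their promoters were not searched. The longer form GTGGGAA, which TGGGAA overlaps, was in 5.39%, 10.05% and 3.33%. The TATA box TATAAA was in 6.71%, 15.1% and 6.67%, the AP-1 motif TGANTCA in 4.81%, 10.96% and 5.56%, and the TEAD motif GGAATG in 10.6%, 15.1% and 8.89%. ATGCAAAT, the octamer, was in 1.26%, 4.57% and 3.33%, and TTGNNNAA of the C/EBP family in 25.1%, 32.4% and 31.1%. The ETS motif ACCGGAAG was rarer beside higher genes, at 3.44%, 0.457% and 1.11%. Shares for GGGCGG (GC box) were 57.9%, 52.1% and 48.9%, for CACGTG (E-box) 8.45%, 5.94% and 8.89%, and for TGACGTCA (CRE) 2.60%, 1.83% and 4.44%. The letters AGATAA, bound by zinc fingers of the Gata family, gave 5.85%, 7.76% and 7.78%, TTCNNNGAA (STAT) 5.93%, 6.39% and 8.89%, and TGTTTAC (FOX) 2.25%, 2.28% and 3.33%. The interferon-stimulated element gave 2.46%, 3.20% and 3.33%, ACAATGG (SOX) 1.58%, 0.913% and 1.11%, and the NF-kB motif 1.33%, 1.83% and 1.11%. CAAAGTCCA (HNF4) and the direct repeat of nuclear receptors were in 0.298% and 0.0271% of all promoters and in 0 of those of called genes. These are descriptions of letters in a window, with no test, and the median GC content of the promoters was 60.0% over all, 57.6% for higher and 60.6% for lower genes.

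Antimicrobial and regenerating-family genes of the mucosa were higher. Of 23 tested members 6 rose and none fell, 15 lay above WT in every library, and the median difference was 1.89. Reg1 encodes a secreted C-type lectin that is expressed in regenerating epithelium. It measured 419, 765 and 753 FPKM in Arid1a_Het and 1.71, 0.672 and 1.10 FPKM in WT. No library came near the other group, and the difference was 8.202 ± 0.279 (adjusted p = 1.88e-06 in limma). Reg3g and Reg3b, bactericidal lectins of the gut, stood at 49.6, 28.3 and 131 FPKM and at 21.2, 19.7 and 83.6 FPKM, against at most 0.937 and 0.302 FPKM in WT. Arid1a_Het 3 held the highest level of both. Their differences were 5.26 ± 0.45 and 4.89 ± 0.45 (adjusted p = 0.000792 and 0.00104 in limma), and since the pair are close in sequence, reads may be shared between them.

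Pigr, the receptor that carries IgA through epithelial cells into the lumen, measured 317, 198 and 607 FPKM against 46.0, 35.9 and 46.9 FPKM (2.95 ± 0.34, adjusted p = 0.00310 in limma). Wfdc2, a secreted protease inhibitor of mucosa, stood at 438, 245 and 732 FPKM against 49.2, 41.2 and 17.9 FPKM (3.65 ± 0.45, adjusted p = 0.00361 in limma). Ltf, the iron-binding lactoferrin, varied most, at 52.2, 75.3 and 651 FPKM against at most 1.33 FPKM (6.48 ± 0.82, adjusted p = 0.00427 in limma). For both Wfdc2 and Ltf, as for Pigr, the lowest Arid1a_Het library lay above the highest WT library. Reg1, Reg3g, Reg3b and Pigr kept their call under all 27 alternatives, Wfdc2 lost it in 1 and Ltf in 2. Duox2, the epithelial hydrogen peroxide source, measured 15.5, 11.1 and 23.9 FPKM against 3.15, 6.58 and 2.66 FPKM with an adjusted p of 0.0753 in limma, so it was not called.

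Markers of SPEM, the spasmolytic polypeptide-expressing metaplasia that replaces corpus cells after parietal cell loss, were also higher. Of 24 tested members 8 rose and none fell, 11 lay above WT in every library, and the median difference was 1.35. Gp2, a membrane glycoprotein, measured 214, 219 and 665 FPKM in Arid1a_Het and 2.76, 0.0951 and 0.302 FPKM in WT, with no overlap (7.50 ± 0.54, adjusted p = 0.000430 in limma). Clu, the secreted chaperone clusterin, was the most abundant, at 3636, 2015 and 6211 FPKM against 588, 633 and 662 FPKM. The WT libraries lay close together and the Arid1a_Het libraries apart from each other, and the difference was 2.51 ± 0.38 (adjusted p = 0.0119 in limma). Cldn7, a tight junction claudin, rose by 3.21 ± 0.51, and Cftr, the chloride channel of fluid secretion, by 3.11 ± 0.58 (adjusted p = 0.0135 and 0.0274 in limma). Il33, an alarmin cytokine, stood at 239, 114 and 248 FPKM against 33.7, 38.4 and 62.3 FPKM (2.10 ± 0.41, adjusted p = 0.0315 in limma). Prom1, a surface protein of progenitors, rose by 1.23 (adjusted p = 0.0437 in limma). Wfdc2 stands on this list as well. Tff2, the trefoil peptide for which SPEM is named, was not called. It was at 4521, 5830 and 8819 FPKM in Arid1a_Het and 10788, 5058 and 9480 FPKM in WT, with overlapping groups and an adjusted p of 0.757 in limma. Cd44, a surface receptor raised in SPEM, was at 22.9, 9.67 and 50.8 FPKM against 11.9, 1.98 and 11.5 FPKM and was not called. Gp2 kept its call throughout, while Clu, Cldn7, Cftr, Il33 and Prom1 lost theirs without Arid1a_Het 1 and without WT 3, among others, with highest limma adjusted p-values of 0.0778, 0.0618, 0.134, 0.143 and 0.171. Cftr, Il33 and Prom1 also lost theirs without Arid1a_Het 3. The list had 2 rises without Arid1a_Het 1 or WT 3, 3 without WT 2, 5 without Arid1a_Het 3 and 12 without Arid1a_Het 2.

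Cytokine genes rose, and no leukocyte marker was called. Of 19 tested cytokines and chemokines 6 rose and none fell, 14 lay above WT in every library, and the median was 0.93. Il1rn, the IL-1 receptor antagonist, measured 14.1, 5.18 and 29.4 FPKM against at most 0.506 FPKM (3.43 ± 0.47, adjusted p = 0.00701 in limma). Cxcl5, a neutrophil attractant, was at 8.17, 7.44 and 48.7 FPKM against at most 0.224 FPKM (3.76 ± 0.56), and Il1a, an alarmin, at 17.1, 4.40 and 34.7 FPKM against at most 0.284 FPKM (3.73 ± 0.58). The limma adjusted p-values were 0.0113 for Cxcl5 and 0.0126 for Il1a. Arid1a_Het 3 was the highest library for all 3 of these genes. Cx3cl1 (1.03) and Cxcl16 (1.61), chemokines tethered to the membrane, rose as well (adjusted p = 0.0161 and 0.0274 in limma), as did Il33 above. Il1b, chiefly a myeloid cytokine, was at 3.37, 2.69 and 30.6 FPKM against at most 0.458 FPKM, and Tnf at 1.98, 1.06 and 5.16 FPKM against at most 0.162 FPKM. Neither passed the test (adjusted p = 0.0842 and 0.0501 in limma). None of 13 tested leukocyte markers was called, with 5 above WT in every library (10.6% over all genes) and a median of 0.86. Their summed level over 22 genes was 48.2 to 143 FPKM in Arid1a_Het and 26.9 to 57.0 FPKM in WT, with 3 of the 22 listed at 0 in Arid1a_Het 1. The pan-leukocyte marker Ptprc was at 0.278, 0.428 and 1.42 FPKM against 0.296 to 0.461 FPKM, and the part of leukocytes in the cytokine result was not tested. Without WT 3, Cxcl5, Il1a, Cx3cl1 and Cxcl16 lost their call, and without Arid1a_Het 1, Il1a, Cx3cl1 and Cxcl16 did, with highest limma adjusted p-values over all alternatives of 0.0664, 0.0765, 0.101 and 0.0981. Without Arid1a_Het 3, Cxcl16 and Il33 lost theirs. The list had 1 rise without WT 3, 2 without Arid1a_Het 1, 4 without Arid1a_Het 3, WT 1 or WT 2 and 9 without Arid1a_Het 2.

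Interferon-response genes were mostly above WT, with a single call. Of 34 tested, 20 lay above WT in every library, as did 10.6% of all tested genes. At an unadjusted p under 0.05 in limma 23 were higher and 0 lower. With a replicate block in the fit 12 rose, and with any 1 library left out 1 or 2 did. The median was 1.03, yet 1 was called in the main fit. That gene, Isg20, an exonuclease that degrades RNA, measured 25.0, 17.7 and 21.5 FPKM against 6.71, 4.06 and 5.72 FPKM (1.79 ± 0.23, adjusted p = 0.00468 in limma) and kept its call throughout. Isg15, a ubiquitin-like protein, was at 75.6, 220 and 56.5 FPKM against 10.02, 28.4 and 32.1 FPKM, highest in Arid1a_Het 2. None of 6 tested MHC class II genes was called, with 1 above WT in every library.

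Mast cell chymases Mcpt1, Mcpt2 and Mcpt4 rose, while the other tested mast cell genes, proteases among them, did not pass the test. Of 11 tested mast cell genes 3 rose and none fell, and 9 lay above WT in every library. Mcpt4, a connective tissue mast cell chymase, measured 31.1, 48.5 and 34.4 FPKM against 1.17, 0.998 and 0.435 FPKM (4.38 ± 0.30, adjusted p = 0.000339 in limma). Mcpt1 and Mcpt2, the mucosal mast cell chymases, were at 264, 148 and 271 FPKM and at 335, 237 and 389 FPKM, against at most 17.5 and 27.7 FPKM in WT. Their differences were 4.43 ± 0.48 and 3.84 ± 0.35 (adjusted p = 0.00246 and 0.000969 in limma). These 2 genes are close in sequence and may share reads. All 3 kept their call under every alternative. Other proteases and receptors of mast cells were not called: Cpa3, the mast cell carboxypeptidase, was at 9.62, 12.0 and 5.74 FPKM against 4.09, 1.45 and 3.89 FPKM. Tpsb2, a tryptase, was at 21.2, 40.8 and 16.9 FPKM against 8.84, 3.48 and 8.20 FPKM, and Cma1, a further chymase, at 4.97, 11.8 and 5.35 FPKM against 2.04, 1.10 and 2.85 FPKM. Kit, the receptor mast cells depend on, was at 2.31, 3.31 and 1.29 FPKM, below 3.60, 8.12 and 8.67 FPKM in WT. The limma adjusted p-values of Cpa3, Tpsb2, Cma1 and Kit were 0.190, 0.151, 0.160 and 0.0931. The summed level of the 14 mast cell genes was 534 to 742 FPKM in Arid1a_Het and 34.7 to 82.2 FPKM in WT. In every Arid1a_Het library most of this sum came from the called Mcpt1 and Mcpt2, so it does not describe the whole list. The part of mast cell number was not tested.

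Genes of epithelial structure and of proteolysis around cells rose. Of 21 tested annexin and S100 genes 5 rose and none fell, 11 of them above WT in every library. Anxa8, a phospholipid-binding annexin, was at 150, 64.8 and 377 FPKM against at most 1.64 FPKM (6.37 ± 0.54, adjusted p = 0.000792 in limma). S100a6, a calcium-binding protein, was at 2309, 1839 and 2652 FPKM against 718, 478 and 630 FPKM (1.90 ± 0.22, adjusted p = 0.00334 in limma). In both genes the groups were wide apart. S100a14 (2.02), S100a3 (1.60) and S100a16 (1.52) rose with them. Of 22 tested matrix proteases and plasminogen regulators 5 rose and none fell, 13 lay above WT in every library, and the median was 1.42. Plat, tissue plasminogen activator, measured 17.1, 21.4 and 49.1 FPKM against at most 2.94 FPKM (3.27 ± 0.49, adjusted p = 0.0114 in limma). Plaur (2.78), the urokinase receptor, Mmp14 (2.25), a membrane collagenase, and Ctsl (2.04), a lysosomal protease, also rose. Claudins gave 3 rises of 16 tested, Cldn4 (3.72), Cldn7 and Cldn23 (2.36), while the stomach claudin Cldn18 stood at 532, 487 and 548 FPKM against 414, 411 and 460 FPKM and was not called. Of 16 tested keratins Krt7 (3.24), a keratin of ducts, and Krt18 rose. Krt18 measured 1952, 1319 and 1995 FPKM against 913, 743 and 944 FPKM. Basement membrane genes gave 3 rises of 23 tested, among them Lama3 (2.62), a laminin chain, and Nid1 (2.41), nidogen. Fibroblasts also make such proteins. The 17 fibroblast and smooth muscle markers summed to 10.1 to 76.9 FPKM in Arid1a_Het and 14.6 to 115 FPKM in WT, and their part in these calls was not tested. Anxa8 and S100a6 kept their calls under all alternatives. The calls of Plaur, Mmp14, Ctsl, Cldn4, Cldn23, Krt7, Krt18, Lama3, Nid1, S100a3, S100a14 and S100a16 were lost without Arid1a_Het 1 and without WT 3, with highest limma adjusted p-values between 0.0575 (S100a3) and 0.214 (Krt18). Without Arid1a_Het 3, the calls of S100a14, S100a16, Krt7 and Krt18 were lost as well. Keratins then had no call, as without Arid1a_Het 1, WT 2 or WT 3, and 4 rises without Arid1a_Het 2 or WT 1. Without Arid1a_Het 1 or WT 3, 2 annexin and S100 genes, 1 protease gene, 0 claudins and 0 basement membrane genes rose. Without Arid1a_Het 2 these were 11, 10, 5 and 6, and without Arid1a_Het 3 they were 3, 4, 3 and 2. Without WT 2 no claudin rose, and 2 protease genes did.

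Squamous markers are named beside these because keratins and claudins are shared with forestomach. None of 12 tested was called, with 4 above WT in every library (10.6% over all genes) and a median of 1.18. Their summed level over 23 genes was 488 to 1338 FPKM in Arid1a_Het and 190.5 to 1099 FPKM in WT, highest in Arid1a_Het 3 and WT 1. The mean log2(FPKM + 1) over the list was higher in WT 1 (3.52, with 0 of 23 listed at 0) than in Arid1a_Het 3 (2.73). Their part in the keratin and claudin calls was not tested.

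Growth regulators that rose included both an inhibitor and promoters of the cell cycle. Cdkn2a encodes the cell cycle inhibitors p16Ink4a and p19Arf. It was near 0 in WT, at 0.0367, 0.130 and 0 FPKM, and at 6.19, 4.13 and 11.1 FPKM in Arid1a_Het (2.86 ± 0.29, adjusted p = 0.00206 in limma). No library overlapped, and the call held under all alternatives. Cdk6 (1.24), a partner of cyclin D1, and Ccnd1 above rose too, so that 3 of 16 tested Myc, cyclin and inhibitor genes were called higher and none lower. Without a call were all 47 tested genes of DNA replication and mitosis, whose median was 0.44 and of which 0 lay above WT in every library. Mki67, a protein of dividing cells, measured 17.05, 4.21 and 8.43 FPKM in Arid1a_Het and 31.8, 1.62 and 15.5 FPKM in WT, with wide and overlapping groups. Myc was at 17.2, 9.94 and 16.9 FPKM against 11.8, 5.53 and 9.89 FPKM. The calls of Cdk6 and Ccnd1 were lost without any 1 library other than Arid1a_Het 2, so that the list then had 1 rise.

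In the list of EGF receptors and growth factors 2 of 20 tested rose, with 7 above WT in every library (10.6% over all genes). Areg, amphiregulin, measured 190, 92.4 and 257 FPKM against 24.7, 24.3 and 15.4 FPKM (2.92 ± 0.42, adjusted p = 0.00912 in limma). Its neighbour Ereg, epiregulin, was at 18.7, 3.95 and 33.3 FPKM against 0.511, 0.0092 and 0.0104 FPKM (3.69 ± 0.62, adjusted p = 0.0178 in limma). Both were lowest in Arid1a_Het 2 and clear of WT. YAP and TEAD genes gave 3 rises of 20: F3, tissue factor (3.67 ± 0.45, adjusted p = 0.00377 in limma), Wwtr1, the coactivator TAZ (2.01), and Ctgf, a matrix protein induced by YAP (2.70). F3 measured 69.9, 22.8 and 92.8 FPKM against 3.08, 3.67 and 3.03 FPKM. In the BMP and TGF-beta list of 25, Inhba, an activin subunit, rose at 3.44, 4.66 and 6.41 FPKM against at most 0.345 FPKM (2.30 ± 0.31, adjusted p = 0.00686 in limma), and the BMP signal transducers Smad1 (-0.86) and Smad9 (-1.27) fell. The immediate early genes Ier5 (1.19) and Ier2 (0.68) rose, of 21 tested in that list. Phlda3 (3.36), a p53 target that restrains AKT, was the only one of 21 p53 targets called, and Onecut2 (3.80), a transcription factor of liver and pancreas development, the only one of 28 gastric transcription factors. F3, Inhba and Onecut2 kept their calls throughout, Areg lost its call in 1 alternative, and Ereg, Wwtr1, Ctgf, Smad1, Smad9, Ier2 and Ier5 lost theirs without Arid1a_Het 1 and without WT 3. Their highest limma adjusted p-values were 0.0847, 0.0908, 0.114, 0.151, 0.194, 0.214 and 0.126. Ctgf, Smad1, Smad9, Ier2 and Ier5 also lost theirs without Arid1a_Het 3. Smad1, Smad9, Ier2 and Ier5 did so without WT 2, Ctrl 1 or Ctrl 2 as well, and Ier2 and Ier5 without WT 1. Without Arid1a_Het 2, 7 genes of the EGF list and 5 of the YAP and TEAD list rose, and without Arid1a_Het 1 or WT 3, 1 of each.

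Retinoid genes changed in both directions. Retinol is oxidised to retinal and then to retinoic acid, which acts through nuclear receptors. Aldh1a3, which makes retinoic acid, measured 229, 44.7 and 271 FPKM in Arid1a_Het and 0.718, 0.362 and 0.103 FPKM in WT (6.69 ± 0.59, adjusted p = 0.000842 in limma). Arid1a_Het 2 was the lowest of the 3 and still far above WT. Rbp7, a retinol-binding protein, was at 124, 58.4 and 99.7 FPKM against 7.92, 5.34 and 5.995 FPKM (3.63 ± 0.33, adjusted p = 0.000969 in limma). Rdh10, which oxidises retinol (2.51), and Rarb, a retinoic acid receptor (1.52), rose as well. Rdh7, another dehydrogenase, fell by 2.67 (± 0.53, adjusted p = 0.0321 in limma), from 14.5, 55.8 and 16.6 FPKM in WT to 1.48, 6.63 and 2.15 FPKM. In all, 4 of 20 tested rose and 1 fell, and the median was -0.15. The calls of Aldh1a3 and Rbp7 held under all alternatives. Rdh7 lost its call under 13 of 27, among them without Arid1a_Het 1, Arid1a_Het 3, WT 2 or WT 3, with adjusted p up to 0.166 in limma, Rarb without any 1 of 5 of the 6 libraries of these groups, and Rdh10 without Arid1a_Het 1 or WT 2.

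Other metabolic lists gave few calls. Of 73 tested genes of oxidative phosphorylation none was called by limma, and the median was -0.30. In every library 13 lay below WT, beside 8.57% of all tested genes. Of 38 genes of fatty acid uptake and oxidation Fabp5, a fatty acid carrier, rose (1.43) and none fell, while 18 lay below WT in every library, and the median was -0.43. In that list 8 fell without Arid1a_Het 2, 2 without WT 1, 8 with the replicate block and up to 17 under other alternatives. Glycolysis and hypoxia gave Slc16a3 (2.22), a lactate exporter, and Hk2 (1.60), a hexokinase, higher, and Bnip3, a mitophagy receptor, lower, of 28 tested. Bnip3 measured 1.45, 1.90 and 2.84 FPKM against 8.61, 10.8 and 7.30 FPKM (-1.70 ± 0.21, adjusted p = 0.00347 in limma). In lipid synthesis Elovl5, a fatty acid elongase, rose to 15.8, 14.4 and 25.7 FPKM from 3.83, 3.52 and 2.21 FPKM (2.21 ± 0.24, adjusted p = 0.00246 in limma), and Acacb, an acetyl-CoA carboxylase, fell (-1.65). Ero1lb (-0.81), a disulfide oxidase of secretory cells, was the 1 call among 32 genes of protein folding. Bnip3 and Elovl5 each lost their call in 1 alternative, and Fabp5, Slc16a3, Hk2, Acacb and Ero1lb lost theirs without Arid1a_Het 1 and without WT 3, with limma adjusted p-values up to 0.214 (Ero1lb). Acacb and Ero1lb also lost theirs without Arid1a_Het 3, WT 1 or WT 2, and Ero1lb without any 1 Ctrl library. Fabp5 lost its call without WT 2, and Slc16a3 and Hk2 lost theirs without WT 1.

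**Figure D3:**
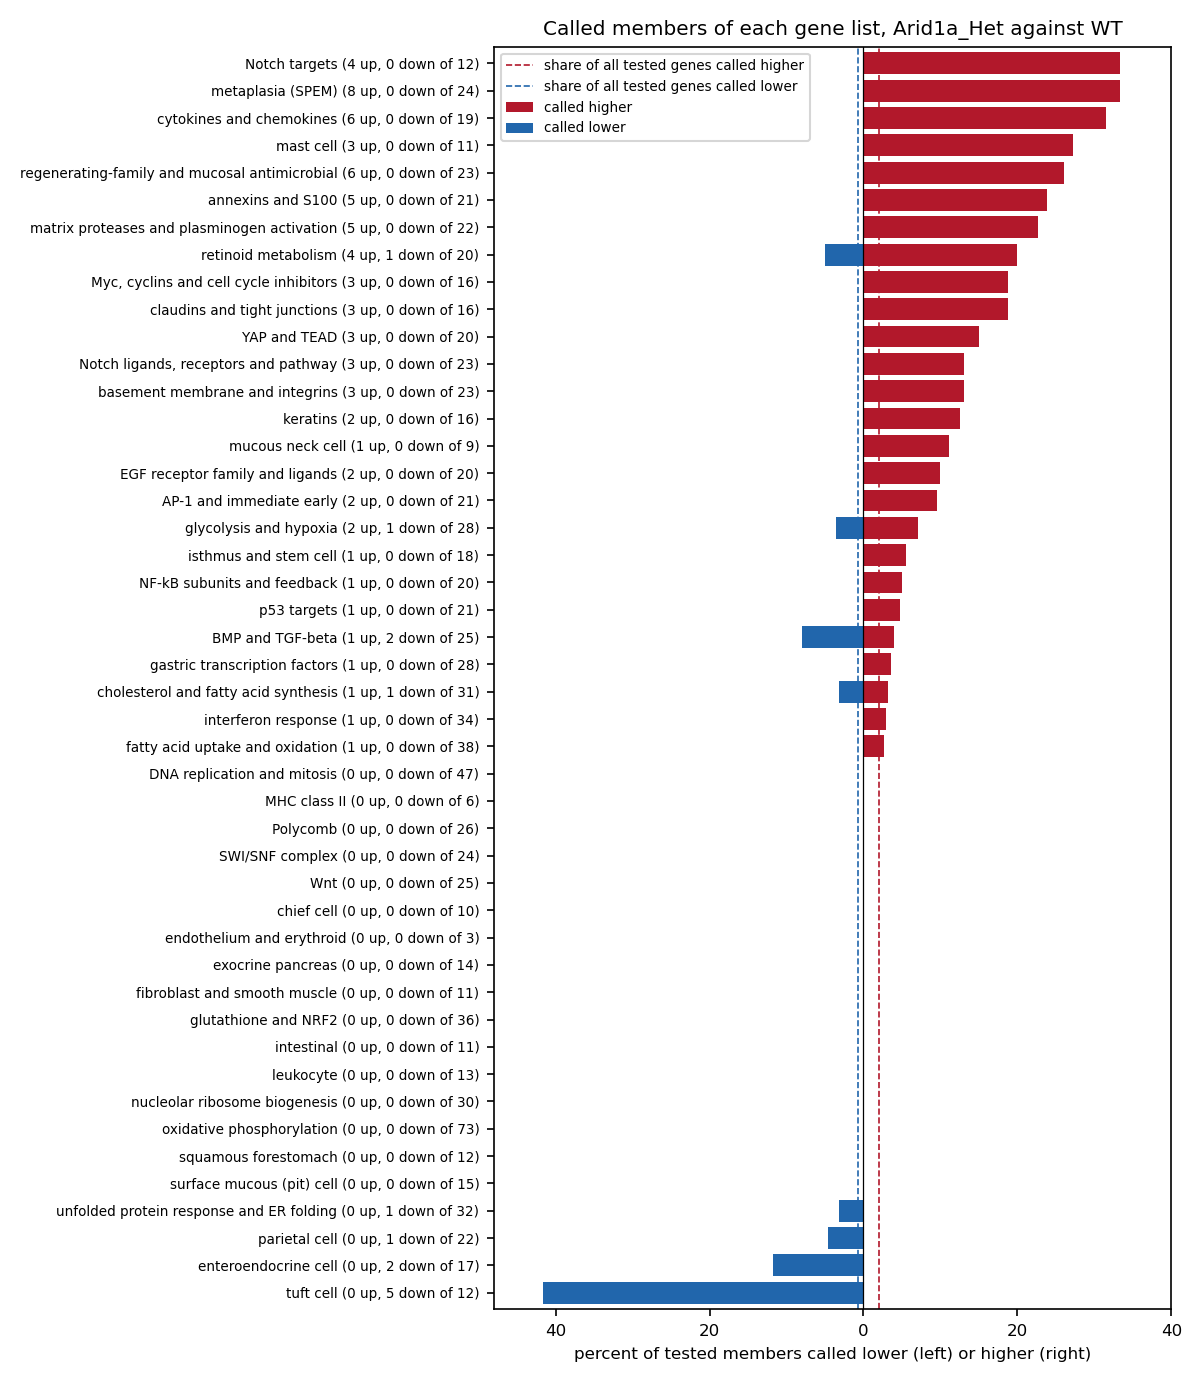
Share of the tested members of each gene list that was called lower (bars to the left, percent) or higher (bars to the right, percent) in Arid1a_Het against WT; the counts stand beside each name. Dashed lines mark the 2.06% and 0.687% of all tested genes called higher and lower; tuft cell genes (5 of 12) have the longest bar to the left and SPEM and Notch target genes (8 of 24 and 4 of 12) the longest to the right.

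Among the cell type lists, tuft cell genes had the most members that fell. Of 12 tested 5 fell and none rose, 8 lay below WT in every library, and the median was -0.89. Rgs13, a regulator of G protein signalling, measured 2.87, 1.86 and 2.47 FPKM in Arid1a_Het and 13.7, 10.6 and 10.1 FPKM in WT (-1.88 ± 0.21, adjusted p = 0.00308 in limma). Dclk1, a kinase that marks tuft cells, was at 0.860, 0.758 and 0.882 FPKM against 5.76, 4.05 and 3.20 FPKM (-1.51 ± 0.23, adjusted p = 0.0126 in limma). Each group was tight in Rgs13 and Dclk1, and they did not overlap. Trpm5, the taste cation channel, fell from 7.05, 8.08 and 4.60 FPKM to 1.64, 2.08 and 1.59 FPKM (-1.43 ± 0.24, adjusted p = 0.0170 in limma), and Gnat3, the taste G protein gustducin, fell by 1.23 (adjusted p = 0.0353 in limma). Pou2f3, the factor that tuft cells depend on, was at 0.721, 0.678 and 1.07 FPKM against 2.38, 1.60 and 1.84 FPKM and was not called. Outside the list, and chosen after their values were seen, Sh2d7 (-1.74), Siglecf (-1.13), Gng13 (-1.26) and Lrmp (-1.08), which are known from tuft cells, were also called lower. Sh2d7, an adaptor protein, was at 1.38, 0.986 and 1.02 FPKM against 7.62, 5.37 and 5.54 FPKM. Rgs13 and Sh2d7 kept their calls under every alternative. Without Arid1a_Het 1 the calls of Dclk1, Trpm5 and Gnat3 were lost, with highest limma adjusted p-values over the alternatives of 0.0697, 0.112 and 0.137. Trpm5, Gnat3 and Lrmp lost theirs without Arid1a_Het 3. The list had 1 fallen gene without Arid1a_Het 1, 2 without WT 1 or WT 2, 3 without Arid1a_Het 2, Arid1a_Het 3, WT 3 or Ctrl 1 and 7 without Ctrl 3.

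In Ctrl, the levels of Rgs13, Sh2d7, Dclk1 and Trpm5 lay between those of the other groups in every library. Rgs13 was at 7.09, 8.85 and 5.16 FPKM in Ctrl, above every Arid1a_Het and below every WT library. Between Arid1a_Het and Ctrl, Rgs13 differed by -1.23 (95% interval -1.71 to -0.74), Sh2d7 by -0.76, Gnat3 by -0.70, Trpm5 by -0.63, Dclk1 by -0.58 and Pou2f3 by -0.51. None of these passed after adjustment over all genes (adjusted p = 0.223 for Rgs13 in limma). Of the 12 tested tuft genes 6 had an unadjusted p under 0.05 in that direction and 0 in the other. Over all 11209 tested genes these counts were 1176 and 129, so most genes at that threshold were lower.

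Of 17 tested endocrine genes 2 fell and none rose. Ghrl encodes the hunger hormone ghrelin. It measured 13.6, 25.9 and 32.2 FPKM in Arid1a_Het and 175, 178 and 179 FPKM in WT (-2.93 ± 0.31, adjusted p = 0.00238 in limma). Sst, somatostatin, the hormone of D cells that restrains acid secretion, was at 7.75, 12.4 and 34.5 FPKM against 175, 140 and 143 FPKM (-3.25 ± 0.49, adjusted p = 0.0113 in limma). For both hormones the highest Arid1a_Het library lay well below the lowest WT library. Chga, the general granule protein of endocrine cells, was at 18.4, 99.1 and 37.9 FPKM against 110, 171 and 116 FPKM, below WT in every library but not called (adjusted p = 0.132 in limma). Gast, the antral hormone gastrin, ranged from 0.154 to 3139 FPKM in Arid1a_Het and from 573 to 3381 FPKM in WT. Gast was highest in Arid1a_Het 3, where Sst was also the highest of the 3, and the part of antral tissue in the Sst result was not tested. Ghrl kept its call under all alternatives and Sst lost it in 2, with adjusted p up to 0.0558 in limma.

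Parietal cell genes varied between libraries, and 1 was called. Of 22 tested 1 fell and none rose, and the median was -1.37. In every library 7 lay below WT, beside 8.57% of all tested genes. Slc26a9, a chloride channel of the gastric epithelium, fell from 29.3, 78.6 and 46.0 FPKM to 8.07, 20.7 and 8.41 FPKM (-1.98 ± 0.40, adjusted p = 0.0353 in limma). Atp4a, the catalytic subunit of the acid pump, was at 690, 2557 and 184 FPKM in Arid1a_Het and 1234, 7584 and 2923 FPKM in WT. The groups overlapped, since Arid1a_Het 2 lay above WT 1, and the adjusted p was 0.326 in limma. Hrh2, the histamine receptor that triggers acid release, was at 3.98, 8.17 and 1.30 FPKM against 12.98, 25.4 and 16.7 FPKM and missed the threshold (adjusted p = 0.0713 in limma). In Ctrl against WT, which uses the same WT libraries and in which 3.04% of all genes fell and 7.01% rose, 11 of the 22 fell, with a median of -1.82. Between Arid1a_Het and Ctrl none of the 22 was called, with a median of 0.50. The Slc26a9 call was lost under 12 of 27 alternatives, with adjusted p up to 0.176 in limma, and among them without Arid1a_Het 1, Arid1a_Het 3, WT 2 or WT 3, or any 1 Ctrl library. The list had 7 fallen genes without Arid1a_Het 2, 2 without WT 1 and 0 without any other library, and 8 with the replicate block and up to 9 under other alternatives.

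Chief, pit and neck cells gave almost no calls. None of 10 tested chief cell genes was called by limma, with a median of -0.32, and Pgc ranged from 7049 to 80305 FPKM in Arid1a_Het and from 11528 to 76555 FPKM in WT. Of 15 pit cell genes none was called, with a median of -0.26. Muc5ac, the surface mucin, was at 370, 543 and 432 FPKM against 1542, 1146 and 906 FPKM, below WT in every library, with an adjusted p of 0.166 in limma. Of 9 neck cell genes 1, Pigr, was called higher, with a median of -0.40, and Muc6, the gland mucin, was at 6.30, 12.1 and 12.3 FPKM against 21.6, 7.98 and 28.0 FPKM. None of 11 intestinal genes was called. The mean level of the parietal list was highest in Arid1a_Het 2 among the Arid1a_Het libraries and in WT 2 among the WT libraries, as the plot of marker lists by library shows.

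**Figure D4:**
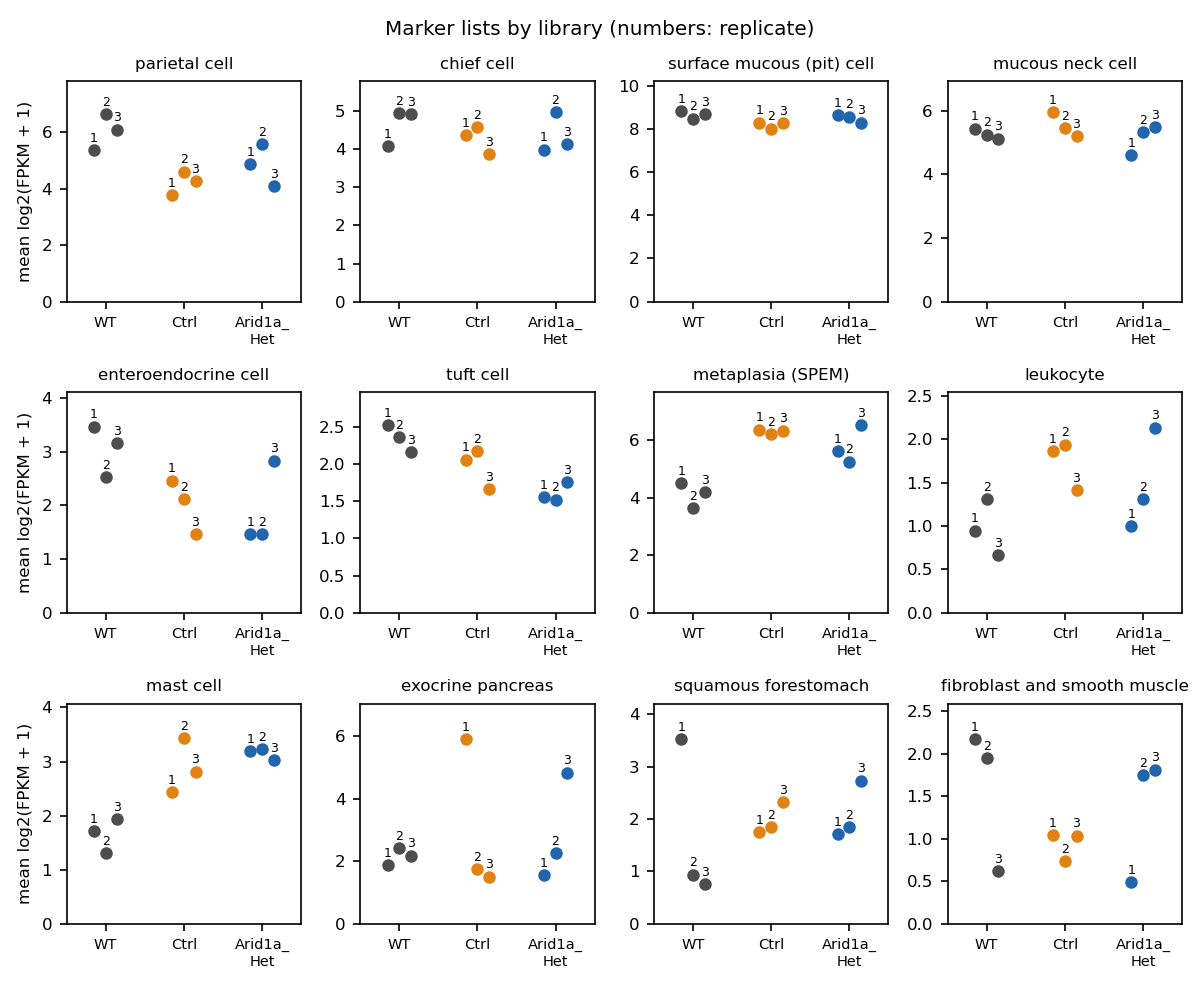
Mean log2(FPKM + 1) over the members of 12 cell type lists in each library of WT, Ctrl and Arid1a_Het; numbers mark the replicate. The tuft list is lower in every Arid1a_Het library than in every WT library, and the parietal and chief lists spread widely within groups.

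Several lists that fit the genotype or the pathways above held no called gene in limma. They were the 24 SWI/SNF complex genes (median -0.06), the 26 Polycomb genes (0.08), 25 Wnt genes (0.09), 36 glutathione and NRF2 genes (0.08) and 30 nucleolar ribosome genes (0.33). Of the NF-kB list 1 of 20 rose, Tnip3 (1.43), an inhibitor of NF-kB signalling. It was at 1.65, 1.05 and 3.15 FPKM against at most 0.0928 FPKM in WT and lost its call under 8 of 26 alternatives. By voom on whole reads, limma also called none in these 5 lists, and at an unadjusted p under 0.05 limma gave 1 higher and 3 lower SWI/SNF genes, 2 and 0 Polycomb genes, 7 and 1 Wnt genes, 5 and 2 glutathione genes and 2 and 0 nucleolar genes. For the other lists without a call, voom called none either, and the unadjusted counts were 10 lower for oxidative phosphorylation, 1 higher for DNA replication and mitosis, 4 higher each for leukocyte and squamous markers, and 1 higher each for MHC class II and intestinal genes. Chief cells had 1 lower, pit cells 1 higher and 2 lower, exocrine pancreas genes 0 higher and 2 lower, endothelial and erythroid genes 1 higher, and fibroblast and smooth muscle genes 0 each way. Over all genes, 1927 had an unadjusted p under 0.05, against 308 called.

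Some called genes lay next to each other, and how often other genes do was not computed. Of the 229 higher genes with a position in GENCODE M21 (GRCm38), 41 lay in 17 runs of called genes less than 200000 bases apart, and 6 of 76 lower genes lay in 3 such runs. The S100 cluster on chromosome 3, 90526856 to 90624181, had 5 of its 7 tested genes called higher (S100a14, S100a16, S100a3, S100a5 and S100a6). All 3 tested genes of the Reg cluster on chromosome 6, 78370657 to 78468872, were called (Reg3b, Reg1 and Reg3g), and all 3 of the mast cell protease cluster on chromosome 14, 56017971 to 56062313. The Ly6 cluster on chromosome 15 gave Ly6d, Ly6e and Ly6a of 5 tested genes. Ly6d, a surface protein anchored by a lipid, measured 833, 857 and 1476 FPKM against 99.9, 89.1 and 97.4 FPKM (3.40 ± 0.25, adjusted p = 0.000469 in limma). On chromosome 11 the proton channels Otop2 and Otop3 were called with Ush1g, and on chromosome 7 Kcnj11 and Abcc8, the pore and the sulfonylurea subunit of 1 potassium channel. Areg and Ereg on chromosome 5 and the lower pair Rdh7 and Sdr9c7 on chromosome 10 were further neighbours. Without Arid1a_Het 3 the calls of S100a14, S100a16, Ly6a, Ush1g, Kcnj11, Rdh7 and Sdr9c7 were lost.

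The comparison of Arid1a_Het with Ctrl tests the Arid1a allele on the NICD background. It called 0 genes higher and 1 lower (0.00892% of those tested) by limma, and 0 and 0 by limma voom on whole reads. At an unadjusted p under 0.05, 129 genes were higher and 1176 lower, and without Arid1a_Het 3 limma called 2 higher and 20 lower. Without Arid1a_Het 1 it called 2 lower and without WT 3, 3 lower. None of the 308 genes called against WT was called against Ctrl. In Ctrl against WT, 277 of the 308 were called too, 222 of the 231 higher and 55 of the 77 lower. Over all tested genes, that comparison called 7.01% higher and 3.04% lower. Among the 231 higher genes the median difference was 2.01 for Arid1a_Het against WT, 2.09 for Ctrl against WT and -0.08 for Arid1a_Het against Ctrl. For the 77 lower genes these were -1.25, -0.97 and -0.08. The first 2 comparisons share the WT libraries. For 170 of the 308 genes the 95% interval of the difference between Arid1a_Het and Ctrl lay within 1 on the log2 scale, and for the other 138 a difference of that size was not excluded by the interval. The interval left out 0 in 38 genes, 29 of them lower in Arid1a_Het and 9 higher.

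The largest of those differences concerned the mucosal defence genes. Reg3b was at 21.2, 19.7 and 83.6 FPKM in Arid1a_Het and 197, 178 and 173 FPKM in Ctrl (-2.44, 95% interval -3.45 to -1.42). Reg3g was at 49.6, 28.3 and 131 FPKM against 244, 226 and 232 FPKM (-2.02, -3.03 to -1.01). Pigr (-1.42) and Reg1 (-1.07) were lower than in Ctrl as well, and so were Plat (-1.40) and Cxcl5 (-1.37). All Arid1a_Het libraries lay below all Ctrl libraries for Reg3b, Reg3g, Pigr and Reg1, and above all WT libraries. The limma adjusted p-values were 0.231 for Reg3b, 0.296 for Reg3g, 0.332 for Pigr and 0.352 for Reg1. Without Arid1a_Het 3, Reg3b, Reg3g, Cxcl5 and Pigr passed the threshold, with limma adjusted p-values of 0.000393, 0.0141, 0.00336 and 0.0275. Without both libraries that hold pancreas RNA, Arid1a_Het 3 and Ctrl 1, Reg3b, Reg3g and Cxcl5 passed it and Pigr did not. Of the 23 tested members of that mucosal list 10 had an unadjusted p under 0.05 in the lower direction and 0 in the higher. Of all 11209 tested genes, 1176 were lower and 129 higher at that threshold, so few genes of any kind were higher. Ctgf was higher than in Ctrl by 1.55 (adjusted p = 0.397 in limma), while Nrarp differed by 0.35 (95% interval -0.36 to 1.06) and Hey1 by 0.77.

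**Figure D5:**
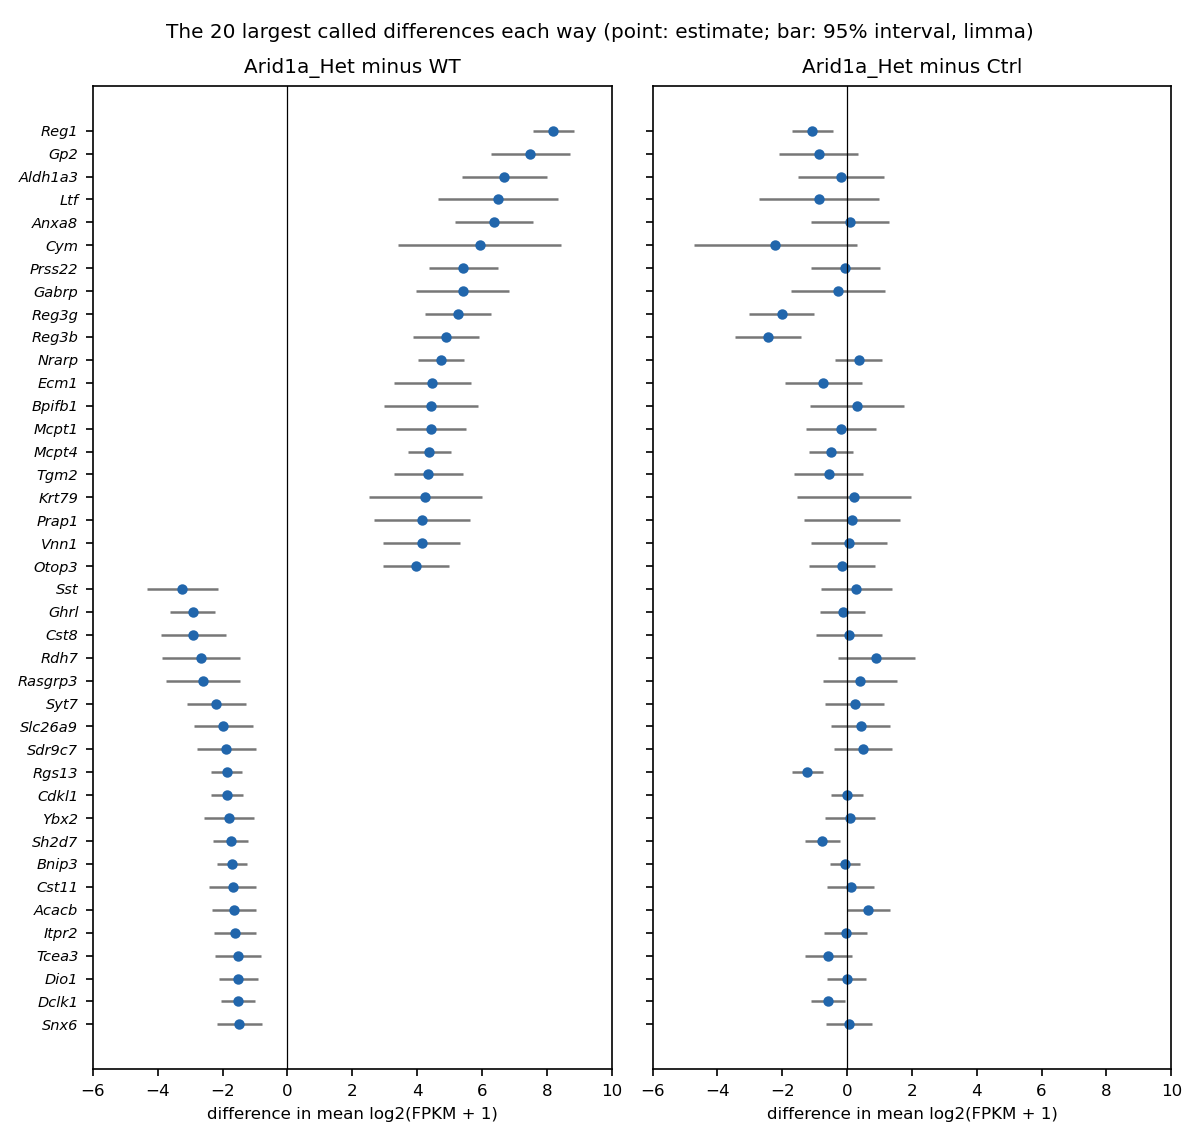
Differences in mean log2(FPKM + 1) for the 20 largest named genes called in each direction, Arid1a_Het minus WT (left panel) and Arid1a_Het minus Ctrl (right panel); points are limma estimates and bars 95% intervals. Left, no interval reaches 0, which was fixed in advance by choosing genes called in that comparison. Right, most intervals include 0, and those of Reg3b, Reg3g, Reg1, Rgs13, Sh2d7 and Dclk1 lie below it.

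The 1 gene called lower than in Ctrl was Mir7688, a microRNA locus on chromosome 10 (mature arms between 93433107 and 93433162, GRCm38.p6, plus strand). Its level rests on few reads, given as the smallest whole numbers that fit. They were 0, 0 and 0 in Arid1a_Het, 1, 0 and 0 in WT and 13, 14 and 13 in Ctrl. The polyadenylated libraries count transcripts over the locus, not mature microRNA. RefSeq gives the mature arms, shown with the seed (bases 2 to 8) in capitals.
mmu-miR-7688-5p: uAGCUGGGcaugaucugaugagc
mmu-miR-7688-3p: uCUGGCUUaugccuagcuuuc
The difference was -3.33 (adjusted p = 0.00127 in limma), and the call was lost with pseudocounts of 0.1 and 0.01, with limma voom and without the libraries of highest Pgc share. The next lowest p-values in this direction were of Snora31 (-1.97), a small nucleolar RNA, AA465934 (-2.64), Nox1 (-1.59), a superoxide-producing oxidase, and Gnb5 (-1.05), a G protein subunit. In the other direction were Gbp2b (2.32), an interferon-induced GTPase, Cyp2s1 (1.12), a cytochrome P450, Prom2 (1.34), a membrane protein of protrusions, Paqr7 (1.34), a progestin receptor, and Nqo1 (1.09), a quinone reductase. Nqo1 was at 1043, 1063 and 791 FPKM in Arid1a_Het, at 991, 820 and 934 FPKM in WT, and at 477, 582 and 326 FPKM in Ctrl. For Nqo1, Cyp2s1, Prom2, Paqr7 and Gbp2b all Ctrl libraries lay below all libraries of both other groups, and none of these 5 was called (smallest adjusted p = 0.187 in limma, for Gbp2b).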

How the data were processed

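RNA-seq libraries of mouse stomach glands, 3 each of Arid1a_Het, Ctrl and WT, were sequenced with a stranded kit, per the labels. Reads were aligned with STAR 2.4.2a to GRCm38/mm10, per the submitters' processing notes; how reads were counted, and whether by strand, is not given in the sources used here, so genes that overlap on opposite strands may share reads. The authors deposited FPKM per gene. Whole reads were worked out as the smallest whole numbers that fit the FPKM of a gene, for 18423 of 18423 genes (tolerance 0.01). They are fixed only up to a factor common to all libraries of that gene. The totals, between 22653249 and 29478481 per library, are therefore estimates. Genes of at least 1 FPKM in 3 of 9 libraries were tested as log2(FPKM + 1) with limma 3.58.1 (R 4.3.3), all 3 groups in 1 fit, with trend and Benjamini-Hochberg adjustment over 11209 genes at 0.05. As an alternative, limma voom on the whole reads called 158 genes higher and 58 lower. Tables and figures used Python 3.11.15, pandas 2.3.3, NumPy 2.4.6 and matplotlib 3.10.9, and the fit was tested on simulated data. The 46 gene lists (1141 of 1160 symbols in the table) and the members were chosen with earlier results of these data known. Named genes are Arid1a, the 20 largest called differences each way without overlap between groups (unnamed, small RNA and pseudogenes left out), up to 6 called members and the most abundant member of each list, and the 5 lowest p each way against Ctrl; not all are printed, and list members named beyond these were chosen after their values were seen.
Some members of the lists are counted but not reported here by name.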

Additional observations from a re-analysis of the deposited data

How the results depend on the processing

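No called gene changed sign under any of the 27 alternatives. The main counts were 231 higher and 77 lower against WT, and 0 and 1 against Ctrl. Against WT they became 95 and 45 with no filter on low values, 89 and 16 with only the 2 groups compared in the fit, 98 and 17 without the 2 libraries that hold pancreas reads, 355 and 88 without the 2 with the highest Pgc share, and 787 and 597 with array weights. Lower genes numbered 44 at a minimum of 5 FPKM and 51 at a log2 difference of at least 1. The share of calls that were higher was 75%, and 56.9% with array weights, 64.4% with the replicate block and 85.2% without the pancreas libraries. Leaving out 1 library gave 80 to 528 higher and 11 to 192 lower against WT, and 0 to 2 higher and 1 to 20 lower against Ctrl. Against Ctrl, 1 gene was higher with only the 2 groups compared, with array weights, and with the block in those 2 groups. Lower than Ctrl were 0 genes with pseudocounts of 0.1 and 0.01, with voom, without small RNA genes and without the high-Pgc libraries, 2 at the minimum of 5 FPKM and with quantile normalization, 4 with no filter and with 2 groups, 6 with array weights and 21 without the pancreas libraries. Deviations from the group mean in same-numbered Arid1a_Het and WT libraries correlated at 0.25, 0.56 and -0.28. For Ctrl and WT these values were 0.21, 0.34 and 0.14, and for Arid1a_Het and Ctrl -0.15, 0.47 and -0.02. The deviations within a group of 3 depend on each other, so they cannot decide whether equal numbers mark pairs. A replicate block gave 445 higher and 246 lower against WT and 2 lower against Ctrl. With only the 2 groups compared in the fit, the block gave 118, 34 and 5. Genes not called could turn: Pgc in Arid1a_Het against WT was 0.047 without Arid1a_Het 3, alone or with Ctrl 1, and -1.71 without Arid1a_Het 2, Tff2 in Arid1a_Het against WT was 0.33 with quantile normalization, and Mki67 in Arid1a_Het against WT was 0.22, 0.55, -1.28 and 0.053 without Arid1a_Het 2, WT 1, WT 2 or WT 3. The cause of these shifts was not tested. The 3 libraries of each group limit the size of change that can be called.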

Other observations

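Genes called higher outside the lists included several membrane and secreted proteins, named here after their values were seen. Muc1, a transmembrane mucin of the apical surface, measured 545, 496 and 569 FPKM in Arid1a_Het and 249, 313 and 253 FPKM in WT, with an adjusted p of 0.0193 in limma. Lgals3, galectin-3, was at 189, 100.4 and 301 FPKM against 58.5, 27.3 and 30.4 FPKM. Cxcr4, a chemokine receptor, was at 10.7, 12.5 and 14.6 FPKM against 2.14, 1.24 and 1.33 FPKM, and Sdc1, a surface proteoglycan, at 252, 182 and 265 FPKM against 78.7, 65.5 and 79.0 FPKM. Vtcn1, an inhibitory ligand of T cells, was at 29.8, 10.7 and 34.9 FPKM against 1.77 to 2.25 FPKM. Pax9, a transcription factor of foregut development, was at 7.31, 2.05 and 14.3 FPKM against at most 0.0255 FPKM. In all 6 genes every Arid1a_Het library lay above every WT library, and the calls of Cxcr4, Sdc1 and Vtcn1 held under all alternatives.

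Among genes called lower outside the lists, Npb, the precursor of neuropeptide B, measured 4.25, 3.39 and 4.63 FPKM in Arid1a_Het and 13.4, 12.9 and 13.3 FPKM in WT. Cdkl1, a protein kinase, was at 0.145, 0.732 and 0.204 FPKM against 4.003, 4.39 and 3.16 FPKM, and Snx18, a sorting nexin, at 6.37, 5.83 and 6.92 FPKM against 15.5, 14.5 and 16.9 FPKM. These 3 calls held under all alternatives. Cst8 and Cst11, neighbouring cystatins, were at most at 1.78 and 0.402 FPKM in Arid1a_Het and at least at 5.70 and 1.19 FPKM in WT, and were highest in library 2 of both groups.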
